A study of Homo sapiens with 18 samples.

Results

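The genes examined were the 5 factors that make selenocysteine on its tRNA and bring it to the ribosome: SARS1 (ENSG00000031698), PSTK (ENSG00000179988), SEPSECS (ENSG00000109618), TRNAU1AP (ENSG00000180098) and EEFSEC (ENSG00000132394). They were taken by Ensembl ID from a count table of 58676 IDs, and all 5 passed the filter on low counts, as did 17678 IDs in all over 18 libraries. HEK293T cells, a human embryonic kidney line (1 protocol label says HEK 293), were transiently transfected with an empty Flag vector (control), with Flag-SBP2, or with Flag-SBP2 and then given 100 nM sodium selenite, added 4 h later. Each of the 3 treatments had 3 biological replicates per the series design, harvested at 48 h, and each replicate gave an input library and a library of RNA recovered on anti-Flag beads (RIP). There was no vector group with selenite, so selenite was compared only between cells that carried Flag-SBP2. SBP2 was overexpressed from a plasmid in every SBP2 group, in 1 cell line, and the labels do not say whether replicates came from separate cultures or days, so p-values measure the spread between these samples.

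Selenocysteine is built on its own tRNA. SARS1, the cytosolic seryl-tRNA synthetase, loads that tRNA with serine as it does the serine tRNAs. PSTK phosphorylates the attached serine, and SEPSECS then replaces the phosphate with selenium to give selenocysteine. TRNAU1AP, also called SECp43, is an RNA-binding protein that associates with the selenocysteine tRNA. EEFSEC is the elongation factor that carries the charged tRNA to the ribosome, where it works with SBP2, the protein bound to the SECIS hairpin of selenoprotein mRNAs. These factors are themselves ordinary proteins without selenocysteine, so what is reported is the recovery of their own mRNAs with SBP2, not of the tRNA or of the proteins.

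The inputs held 15.2 to 22.2 M counts each and the RIP libraries 20 to 29.9 M, where M stands for 1000000 counts. The lowest count of a member in any library was 71 for SEPSECS and 97 for PSTK, against 630 for EEFSEC, 737 for TRNAU1AP and 5812 for SARS1. SEPSECS and PSTK therefore carried the larger counting error. The member genes lie on chr1:109213893-109238182 (SARS1), chr10:122980401-122990390 (PSTK), chr4:25120014-25160582 (SEPSECS), chr1:28553085-28578545 (TRNAU1AP) and chr3:128153481-128426223 (EEFSEC) in RefSeq on GRCh38.p14. EEFSEC shares 434 bp with RUVBL1 and TRNAU1AP shares 8 bp with the noncoding RNA gene SNHG12, and counts may hold reads of these neighbours since the strand setting is not given in the sources used here. The count table names genes by Ensembl ID only and the reference table pairs 0 of its 59792 genes with such an ID. SECISBP2 (the gene of SBP2), the remaining genes of selenium metabolism and marker genes of HEK293T cells were for that reason not analysed by name here. The ID with the largest called rise in SBP2 inputs, ENSG00000187742, lay at 51.6 to 57.2 CPM in the control inputs and at 2380 to 3470 CPM in the 6 SBP2 inputs. It was picked for that difference and is not paired with a gene name in the sources used here, so it does not check the labels. Whether it is the ID of the transfected gene was not checked.

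Levels are given in CPM, counts per 1000000 counts of a library whose size was scaled by its TMM factor. They were not compared between genes, because the table holds no transcript lengths. The spread over the 9 inputs differed between members. TRNAU1AP varied least, from 59.8 to 71.6 CPM (1.2-fold), and SEPSECS most, from 3.99 to 7.2 CPM (1.81-fold). PSTK ran from 12.2 to 16.4 CPM, EEFSEC from 44.7 to 61.8 CPM and SARS1 from 366 to 561 CPM. RIP libraries were where members parted: PSTK and TRNAU1AP were low in control RIP, SEPSECS was higher in RIP than in input in every treatment, and in both SBP2 treatments SARS1 was higher and EEFSEC lower in RIP than in input.

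**Figure D1:**
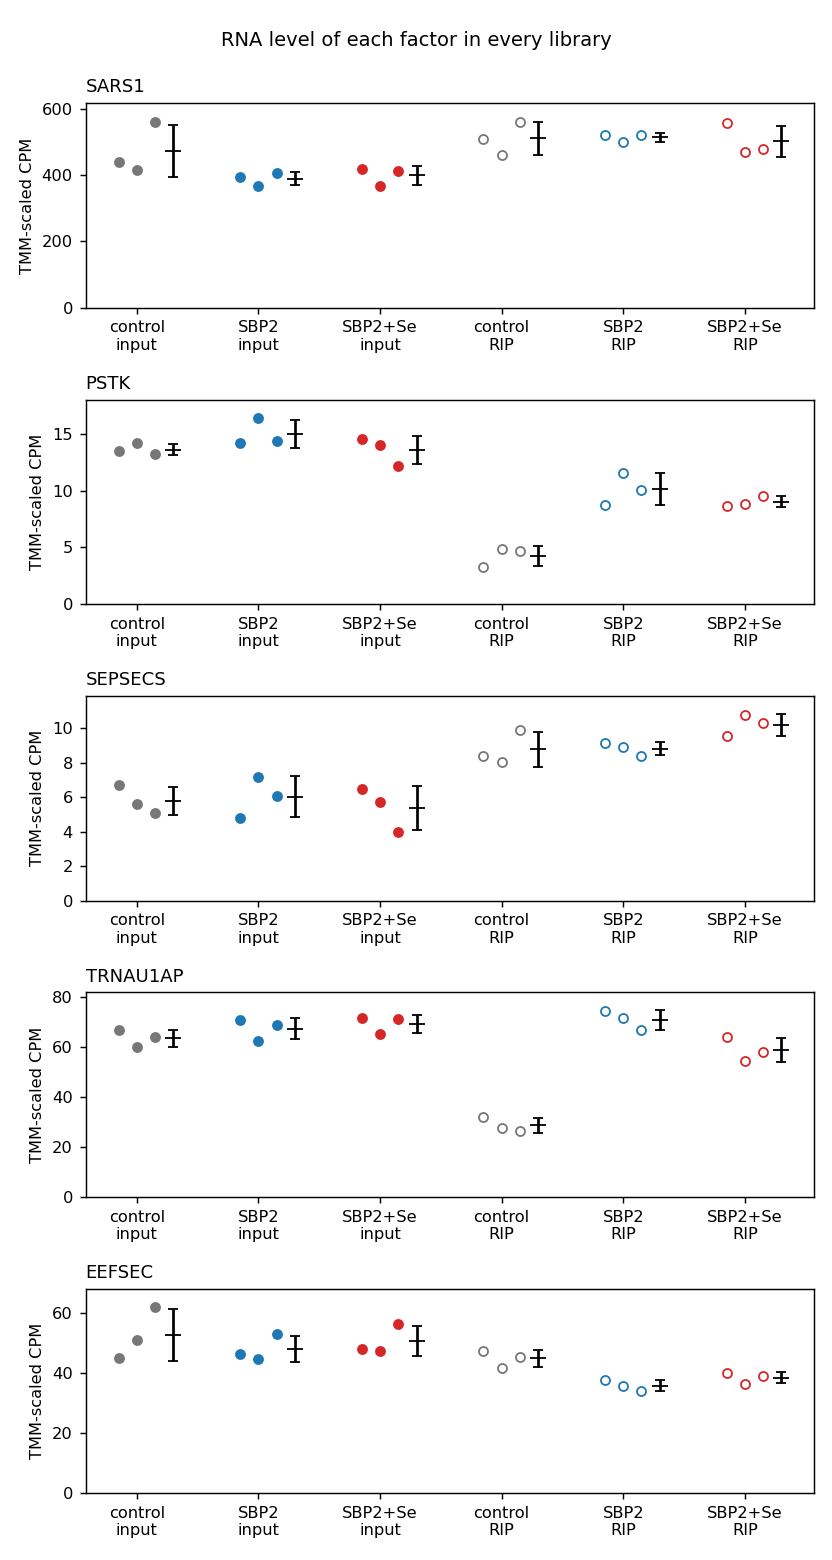
TMM-scaled CPM (linear axis from 0) of each gene in the 18 libraries, filled points for inputs and open points for RIP, with black bars for the mean ± SD of 3 replicates. PSTK lies at 3.26 to 4.85 CPM and TRNAU1AP at 26.2 to 31.8 CPM in control RIP, below every other library of the same gene.

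The control precipitation gave the level of each mRNA, relative to the other RNAs, on anti-Flag beads without Flag-SBP2. CPM are shares of a library, so the amount of RNA held by the beads was not measured. Recovery, background and enrichment are relative in this sense throughout. Of the 5 members, SEPSECS rose and PSTK and TRNAU1AP fell from control input to control RIP, while SARS1 and EEFSEC did not pass the test. Such calls were the rule in this comparison, since 31.5% of all 17678 IDs were called higher and 39.8% lower (edgeR quasi-likelihood test, Benjamini-Hochberg adjusted p under 0.05).

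PSTK, the kinase of the pathway, fell the most. It measured 13.5, 14.2 and 13.2 CPM in the control inputs and 3.26, 4.85 and 4.65 CPM in the matching RIP libraries. Every RIP value was below every input value, as for 39.7% of all IDs. The log2 change was -1.68 (SE 0.142, edgeR adjusted p = 1.03e-10), a level in RIP of 0.312 times the input. TRNAU1AP measured 66.7, 59.8 and 63.7 CPM in control input and 31.8, 27.7 and 26.2 CPM in control RIP. These groups did not overlap either, and the log2 change was -1.15 (SE 0.0927, edgeR adjusted p = 4.05e-11), or 0.451 times the input.

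SEPSECS, the enzyme that inserts selenium, went the other way. Its control inputs held 6.7, 5.6 and 5.07 CPM and its control RIP libraries 8.38, 8.04 and 9.93 CPM. All 3 RIP values were above the inputs, as for 32.1% of IDs, with a log2 change of 0.61 (SE 0.161, edgeR adjusted p = 0.0015). EEFSEC overlapped, at 44.9, 51.1 and 61.8 CPM in input and 47.3, 41.8 and 45.4 CPM in RIP, for a log2 change of -0.23 (SE 0.105, edgeR adjusted p = 0.0515). SARS1 overlapped as well, at 441, 417 and 561 CPM in input and 510, 462 and 561 CPM in RIP, for a log2 change of 0.11 (SE 0.0994, edgeR adjusted p = 0.315). Both results changed when a single library was left out and with the tool, and for SARS1 also with the scaling and the filter. Without control input replicate 1 EEFSEC passed at log2 -0.33 (edgeR adjusted p = 0.00764), and with limma voom it passed narrowly at -0.23 (adjusted p = 0.05 after rounding). Without control input replicate 3 SARS1 passed at 0.26 (edgeR adjusted p = 0.0175), as it did with library size alone (0.30, edgeR adjusted p = 0.00919), with DESeq2 size factors in edgeR (0.23, adjusted p = 0.0414), in DESeq2 (0.23, adjusted p = 0.0427) and without a low-count filter (0.29, edgeR adjusted p = 0.0029).

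With Flag-SBP2 on the beads the picture changed for PSTK and TRNAU1AP. In SBP2 RIP against SBP2 input, SARS1 and SEPSECS were higher, PSTK and EEFSEC were lower, and TRNAU1AP no longer differed beyond its error. The background was 30.3% of IDs called higher and 31.7% lower. With selenite, SARS1 and SEPSECS were again higher and PSTK, EEFSEC and TRNAU1AP lower, against a background of 30.7% and 31.6%. RIP values that all lay above, or all lay below, the inputs were found in 33.9% and 34.6% of IDs without selenite and in 32.4% and 32.7% with it.

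TRNAU1AP measured 70.5, 62.4 and 68.7 CPM in SBP2 input and 74.3, 71.3 and 66.6 CPM in SBP2 RIP. The groups overlapped, with a log2 change of 0.07 (SE 0.09, 95% interval -0.11 to 0.26, edgeR adjusted p = 0.502). With selenite it measured 71.6, 65.1 and 70.9 CPM in input and 63.9, 54.4 and 58.1 CPM in RIP. All RIP values were then below the inputs, but the change was small, at log2 -0.24 (SE 0.0904, edgeR adjusted p = 0.027). That call was lost in 6 of 13 alternatives: with library size alone (-0.18, edgeR adjusted p = 0.0723), without a low-count filter (-0.22, 0.109), and without selenite input replicate 1 (0.0871) or 3 (0.0707) or selenite RIP replicate 2 (0.162) or 3 (0.09).

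PSTK stayed below input with SBP2, but by less than in the control. Its SBP2 inputs held 14.2, 16.4 and 14.4 CPM and its SBP2 RIP libraries 8.75, 11.6 and 10.1 CPM. With selenite the inputs held 14.6, 14 and 12.2 CPM and the RIP libraries 8.66, 8.82 and 9.57 CPM. Neither pair of groups overlapped. The RIP-to-input change was -0.57 on the log2 scale without selenite (SE 0.132, edgeR adjusted p = 0.000625) and -0.59 with it (SE 0.135, edgeR adjusted p = 0.000482).

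SEPSECS was recovered above input in all 3 treatments. It rose from 4.82, 7.2 and 6.09 CPM in SBP2 input to 9.12, 8.93 and 8.4 CPM in SBP2 RIP (log2 0.54, SE 0.16, edgeR adjusted p = 0.00518). With selenite it rose from 6.46, 5.71 and 3.99 CPM to 9.54, 10.8 and 10.3 CPM (log2 0.93, SE 0.162, edgeR adjusted p = 2.27e-05). No SEPSECS input reached the lowest RIP value, 8.04 CPM, in any treatment.

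SARS1, the serine-loading enzyme, was modestly higher in SBP2 RIP, at 521, 499 and 521 CPM against inputs of 394, 368 and 406 CPM (log2 change 0.40, SE 0.0996, edgeR adjusted p = 0.00121). With selenite it stood at 556, 469 and 480 CPM in RIP and 419, 366 and 413 CPM in input (log2 0.33, SE 0.0996, edgeR adjusted p = 0.00599). The groups did not overlap in either treatment. SARS1 levels in the 3 RIP groups were alike, with means of 511 ± 49.6 CPM in the control, 513 ± 12.8 CPM with SBP2 and 502 ± 47.7 CPM with selenite (SD, n = 3).

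EEFSEC, the elongation factor, was lower in SBP2 RIP, at 37.6, 35.7 and 33.9 CPM against inputs of 46.2, 44.7 and 52.8 CPM (log2 -0.42, SE 0.107, edgeR adjusted p = 0.00126). With selenite it stood at 39.9, 36.4 and 39.1 CPM in RIP and 48, 47.3 and 56.4 CPM in input (log2 -0.40, SE 0.107, edgeR adjusted p = 0.00229). Again no RIP value reached an input value.

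**Figure D2:**
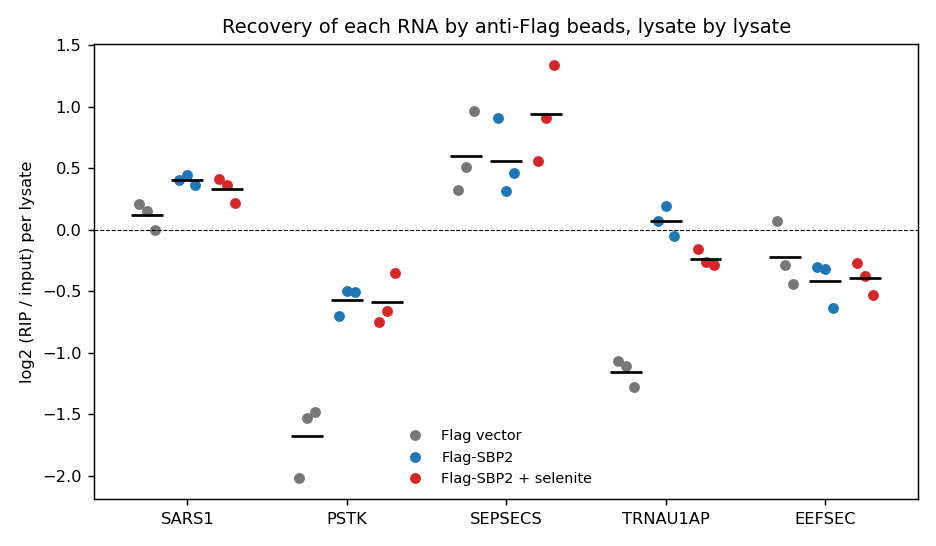
Log2 of RIP over input for each lysate (points) and the mean of 3 lysates (black lines), by gene and treatment, with 0 marking equal levels in RIP and input. PSTK and TRNAU1AP are the genes whose control lysates, at -2.02 to -1.48 and -1.28 to -1.07, lie far below both sets of SBP2 lysates.

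The enrichment over control asked which mRNAs were recovered with Flag-SBP2 beyond the bead background, as the RIP-to-input ratio with SBP2 minus that of the control. In the main fit, which does not pair the libraries of 1 lysate, PSTK and TRNAU1AP were enriched about 2-fold. SARS1, SEPSECS and EEFSEC did not pass. The same 2 members passed with selenite, and 0 members were depleted in either comparison. With lysates paired, SARS1 passed as well without selenite (0.28, edgeR adjusted p = 0.0292), where 4026 of 17678 IDs were called enriched. Over all IDs, the main fit called 21.7% enriched and 18.1% depleted without selenite, and 19.3% and 14.4% with it. IDs enriched in both comparisons made up 17.9%, and both comparisons share the control libraries. From 2 of 5 members against such a background nothing particular to these genes can be read. The median enrichment of the members was 0.29 on the log2 scale, and 0.31 with selenite, beside 0.02 and 0.03 over all IDs. These were the values of SARS1 and SEPSECS, which did not pass in the main fit. They lay within the quartiles of all IDs, -0.41 to 0.52 without selenite and -0.35 to 0.47 with it.

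In single lysates, the log2 RIP-to-input ratio of TRNAU1AP was -1.07, -1.11 and -1.28 in the control and 0.07, 0.19 and -0.05 with SBP2. With selenite it was -0.16, -0.26 and -0.29. All 6 SBP2 lysates were above all 3 control lysates. Lysates without overlap in that direction were found for 27.3% of IDs without selenite and 24.4% with it. The enrichment was 1.22 on the log2 scale (SE 0.129, 2.33-fold, 95% interval 1.94 to 2.81, edgeR adjusted p = 3.19e-08), and 1467 of the 17678 IDs had a higher value. With selenite it was 0.92 (SE 0.129, 1.89-fold, 95% interval 1.57 to 2.27, edgeR adjusted p = 4.19e-06).

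The log2 ratio of PSTK was -2.02, -1.53 and -1.48 in the control, -0.70, -0.50 and -0.51 with SBP2 and -0.75, -0.66 and -0.35 with selenite. Here too every SBP2 lysate was above every control lysate, beside the same shares of 27.3% and 24.4% of IDs. All 9 ratios were below 0. The enrichment was 1.11 (SE 0.194, 2.16-fold, 95% interval 1.64 to 2.85, edgeR adjusted p = 5.09e-05). With selenite it was 1.08 (SE 0.196, 2.12-fold, 95% interval 1.6 to 2.81, edgeR adjusted p = 0.000103). For scale, 1744 IDs had a higher enrichment than PSTK without selenite and 1452 with it.

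Neither enriched member passed the test as recovered above its own input level. Without selenite, PSTK was below input in control RIP and still below input in SBP2 RIP, a pattern shared with 1150 of the 3844 enriched IDs (29.9%). TRNAU1AP was below input in control RIP and did not pass against it in SBP2 RIP, as for 904 enriched IDs (23.5%). The pattern in which an RNA passed from below input in the control to above input with SBP2 was found for 788 enriched IDs (20.5%) and for 0 of the 5 members. With selenite, PSTK and TRNAU1AP were both below input in control RIP and in SBP2 RIP, as were 1160 of 3416 enriched IDs (34%).

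SARS1 had log2 ratios of 0.21, 0.15 and 0 in the control, 0.40, 0.44 and 0.36 with SBP2 and 0.41, 0.36 and 0.22 with selenite. The SBP2 lysates did not overlap with the control, which was also true of 27.3% of IDs in the higher direction, and those with selenite did not either (24.4% of IDs). The enrichment was 0.29 (SE 0.141, 1.22-fold, 95% interval 0.997 to 1.49, edgeR adjusted p = 0.112) and, with selenite, 0.22 (SE 0.141, edgeR adjusted p = 0.258). With each lysate as a replicate block, which pairs the input and the RIP library of 1 lysate, the first passed at 0.28 (edgeR adjusted p = 0.0292) and the other did not (0.21, edgeR adjusted p = 0.115). Without control input replicate 2 the first passed too, at 0.37 (edgeR adjusted p = 0.0468). RIP compared directly with RIP gave 0.01 for SARS1 (edgeR adjusted p = 0.962). The SARS1 inputs averaged 473 ± 77.1 CPM in the control and 389 ± 19.4 CPM with SBP2 (SD, n = 3).

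SEPSECS and EEFSEC gave no enrichment that passed. SEPSECS ratios were 0.32, 0.51 and 0.96 in the control, 0.91, 0.31 and 0.46 with SBP2 and 0.56, 0.91 and 1.34 with selenite. They overlapped throughout, with enrichments of -0.07 (SE 0.227, 95% interval -0.54 to 0.39, edgeR adjusted p = 0.83) and, with selenite, 0.31 (SE 0.229, 95% interval -0.16 to 0.78, edgeR adjusted p = 0.322). EEFSEC ratios were 0.07, -0.29 and -0.44 in the control, -0.30, -0.32 and -0.64 with SBP2 and -0.27, -0.38 and -0.53 with selenite. The EEFSEC enrichment was -0.19 (SE 0.15, 95% interval -0.50 to 0.12, edgeR adjusted p = 0.334) and, with selenite, -0.16 (SE 0.15, 95% interval -0.47 to 0.14, edgeR adjusted p = 0.44). Its RIP levels alone were lower with SBP2 than in the control, at log2 -0.33 (edgeR adjusted p = 0.0101), and with selenite at -0.22 (edgeR adjusted p = 0.0817). Such calls were common, since RIP against RIP called 4748 of 17678 IDs lower without selenite and 4225 with it. Both 95% intervals of EEFSEC and of SEPSECS ended below a 2-fold enrichment.

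**Figure D3:**
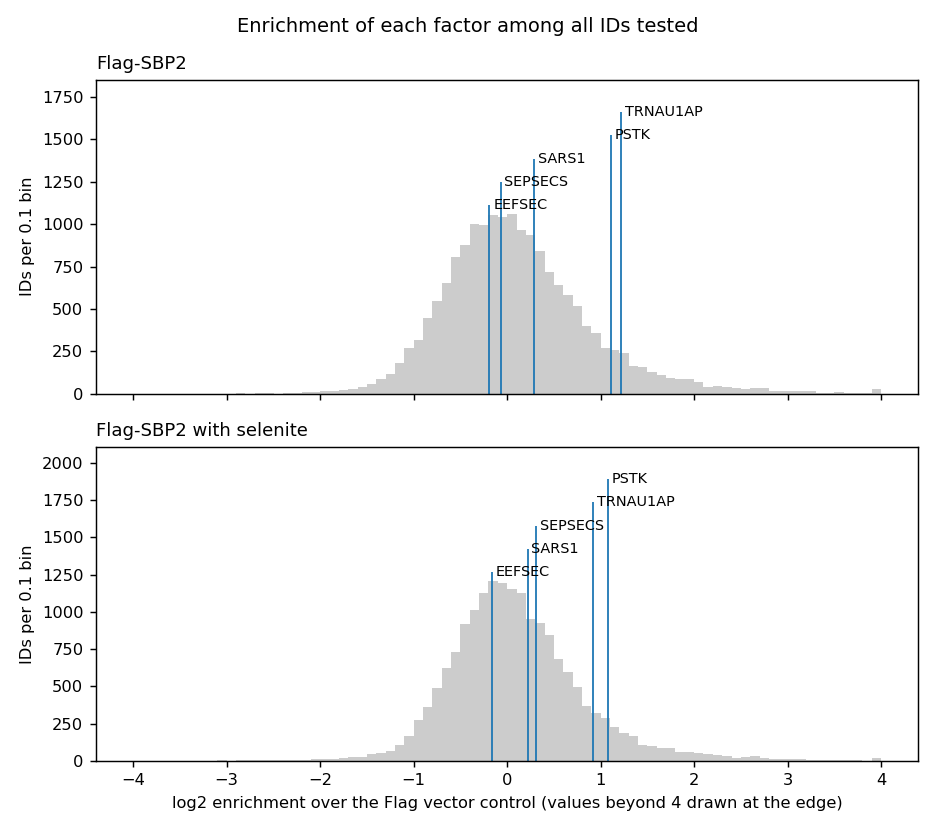
Number of IDs per 0.1-wide bin of log2 enrichment over the Flag vector control (grey, 17678 IDs) and the value of each member (blue lines, whose height has no meaning), without selenite above and with selenite below. PSTK and TRNAU1AP stand on the right shoulder, at 1.11 and 1.22 without selenite and 1.08 and 0.92 with it, while the other members lie within the bulk.

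Counts set against SARS1 inside the same library need no scaling between libraries, a measure chosen after the values above were seen. TRNAU1AP counts were 15.1%, 14.3% and 11.4% of SARS1 counts in control input and 6.24%, 5.99% and 4.66% in control RIP. With SBP2 they were 17.9%, 16.9% and 16.9% in input and 14.2%, 14.3% and 12.8% in RIP. The share thus dropped by more in control than in SBP2 lysates, and the difference between them was 0.95 on the log2 scale (1.93-fold), or 0.71 with selenite. The same difference was 0.85 for PSTK and 0.90 with selenite. All 3 SBP2 lysates were above all 3 control lysates in each of these 4 comparisons, as for 16.8% of all IDs set against SARS1 in the same way without selenite and 15.9% with it. Each had a two-sided exact permutation p of 0.1, the smallest that 3 against 3 lysates allow. EEFSEC was lower against SARS1 with SBP2, at -0.48, and with selenite, at -0.38, again without overlap (exact permutation p = 0.1), as for 37.8% and 28% of IDs in that direction. This measure takes in the shift of SARS1 itself, whose enrichment was 0.29 and 0.22, while the enrichment of EEFSEC was -0.19 and -0.16 and its lysates overlapped with the control. SEPSECS overlapped in both (exact permutation p = 0.4 and 0.7).

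Whether selenite changed the recovery of these mRNAs with SBP2 was asked by subtracting the RIP-to-input change without selenite from that with it. No member passed, and neither did any of the 17678 IDs in edgeR (0% called), although 4.53% of IDs had an unadjusted p under 0.05. TRNAU1AP had the member difference with the smallest p, -0.31 on the log2 scale (SE 0.128, 95% interval -0.57 to -0.04, unadjusted p = 0.0237, edgeR adjusted p = 0.989). Its 3 selenite lysates were all below the 3 lysates without selenite, which held in the lower direction for 7.77% of all IDs. SEPSECS differed by 0.39 (SE 0.228, 95% interval -0.08 to 0.86, edgeR adjusted p = 0.989). EEFSEC, PSTK and SARS1 differed by 0.03, -0.03 and -0.07, with 95% intervals of -0.28 to 0.34, -0.42 to 0.36 and -0.36 to 0.22 (edgeR adjusted p = 0.995 for each). For PSTK, the kinase, the 95% interval of the selenite difference ran from 0.749 to 1.28 times the recovery without selenite.

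The inputs asked whether Flag-SBP2 or selenite altered the mRNA level of the factors in the lysate. In bulk lysates fewer cells with an mRNA and less mRNA per cell cannot be told apart. No member passed in any of the 3 input comparisons when replicates were not paired. With the replicate number as a block, SARS1 alone passed, in both comparisons against control. The share of all 16616 IDs called was 0.879% for SBP2 against control, 0.00602% for SBP2 with against without selenite and 0.554% for SBP2 with selenite against control.

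SARS1 had the lowest p among the members. Its control inputs were 441, 417 and 561 CPM, against 394, 368 and 406 CPM with SBP2 and 419, 366 and 413 CPM with selenite. The inputs with SBP2 were all below the control inputs, as for 12.6% of IDs, and those with selenite overlapped with them. The log2 difference was -0.27 (SE 0.108, unadjusted p = 0.0229, edgeR adjusted p = 0.25), and with selenite it was -0.24 (SE 0.108, unadjusted p = 0.0425, edgeR adjusted p = 0.425). An unadjusted p under 0.05 was reached by 15% of all IDs in the first and by 11.3% in the second comparison. With the replicate number as a block, which pairs same-numbered inputs, both passed, at -0.27 (edgeR adjusted p = 0.0079) and -0.23 (edgeR adjusted p = 0.0338). In the first comparison 2734 IDs then passed in place of 146, and in the second 1130 in place of 92.

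The other factors did not pass. All 3 PSTK inputs with SBP2 were above the control inputs when only inputs were scaled together, as for 8.1% of IDs, though both groups reached 14.2 CPM with all libraries scaled together. With SBP2, TRNAU1AP differed by 0.09 (95% interval -0.11 to 0.29), PSTK by 0.15 (-0.12 to 0.41), SEPSECS by 0.08 (-0.35 to 0.51) and EEFSEC by -0.13 (-0.40 to 0.14), with edgeR adjusted p from 0.598 to 0.879. Adding selenite to SBP2 gave differences from -0.17 for SEPSECS (95% interval -0.61 to 0.26) to 0.08 for EEFSEC (-0.19 to 0.35), with an edgeR adjusted p of 1 for all 5 members. The synthesis enzyme SEPSECS had the widest interval, and its counts were the lowest of the members.

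**Figure D4:**
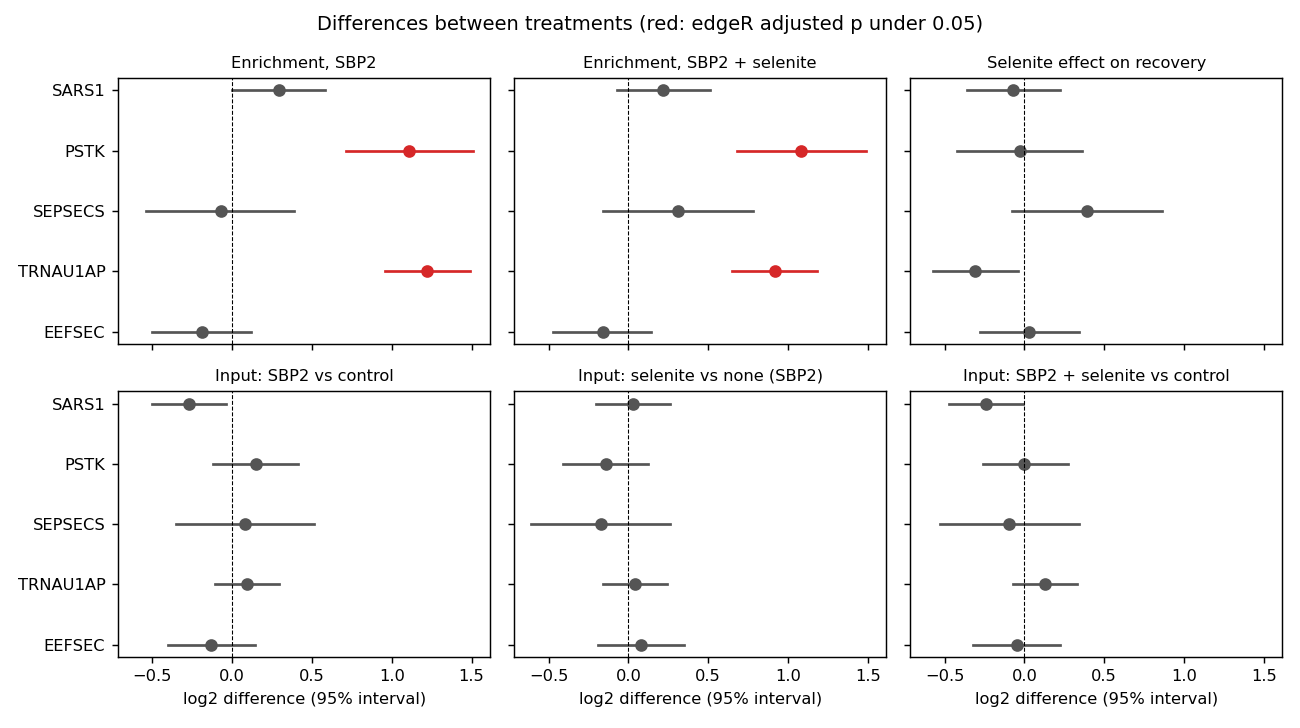
Log2 differences (points) with 95% intervals (lines) for each gene in 6 comparisons, the enrichments and the selenite effect on recovery above and the 3 input comparisons below, with red for an edgeR adjusted p under 0.05. The red points are PSTK and TRNAU1AP in both enrichments, from 0.92 to 1.22, and all input differences lie between -0.27 and 0.15. The fits shown paired neither lysates nor replicate numbers.

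The members did not follow 1 pattern over the 18 libraries. By Pearson correlation of log2 CPM, a description in which input and RIP libraries form separate groups, PSTK and TRNAU1AP were the most alike (r = 0.862), SEPSECS and SARS1 came next (r = 0.562), and EEFSEC and SEPSECS were the most opposed (r = -0.791). Likeness was ranked over 13349 IDs whose log2 CPM averaged at least 1. The IDs most like TRNAU1AP were ENSG00000121900 (r = 0.992) and ENSG00000142252 (r = 0.988). Their own enrichments over control were 1.67 and 1.86 on the log2 scale, beside 1.22 for TRNAU1AP. The ranking used the same libraries as the enrichments, so likeness between these values follows in part from the choice. Those most like EEFSEC were ENSG00000103855 (r = 0.959) and ENSG00000101144 (r = 0.954), with enrichments of -0.23 and -0.21. For PSTK, SEPSECS and SARS1 the closest ID reached r = 0.978, 0.942 and 0.921. The IDs most like PSTK had enrichments of 0.78 and 2.11, those most like SEPSECS 0.08 and -0.09, and those most like SARS1 0.20 and 0.34.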

How the data were processed

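The authors deposited raw whole-number counts per Ensembl gene ID, 1 column per library. The submitters' processing notes name Trim Galore (0.6.6), STAR (2.7.6a), featureCounts (2.0.1) and the build GRCh38. The annotation, strand setting and handling of multiply mapped reads were not given in the sources used here. Libraries were made from polyA RNA, per the labels, and the selenocysteine tRNA was not analysed here.

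Columns were matched to samples by the column name in each sample description, and samples to groups by title. Counts were filtered with filterByExpr (minimum count 10, minimum total 15), scaled by TMM and tested with edgeR 4.0.16 (quasi-likelihood, two-sided) in R 4.3.3. All 18 libraries entered 1 group-means model for the RIP comparisons, and input comparisons used the 9 inputs (16616 IDs). P-values were adjusted by Benjamini-Hochberg over all IDs tested, at a threshold of 0.05. Standard errors were derived from the test statistic, and 95% intervals from the t distribution with the fit's degrees of freedom. Ratios of single lysates used a prior count of 2. Between replicates, chi-square over degrees of freedom was 5.07 to 29.3, above sampling noise, and no library was taken for a duplicate. The edgeR script was tested on simulated data in which few IDs changed. Many differ between RIP and input here, so that test does not cover the scaling between libraries.

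An input and a RIP library of the same number come from 1 lysate, per the labels' protocols, although their deviations from the group means correlated at only 0.0012 to 0.19. Same-numbered inputs correlated at 0.13 to 0.31 (selenite and control), 0.11 to 0.19 (both SBP2 treatments) and 0.085 to 0.22 (SBP2 and control). Inputs of different numbers correlated lower in each case, at -0.27 to -0.034, -0.17 to -0.023 and -0.22 to 0.027. The main input tests nonetheless left replicates unpaired, and the main RIP tests left lysates unpaired. Results with the replicate number or the lysate as a block are given where the block changed the call of a member. Alternatives were other scalings, DESeq2 1.42.0, limma 3.58.1 (voom), no filter, blocks, other fits and leaving out each library.

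The members and lists were chosen with earlier results of these data known. All 5 members are named in every comparison. The 6 lists of other pathway genes (87 symbols), and the parts of the naming rule that need them, were not used, since no table paired their IDs with symbols. Of the IDs most like each member, those of TRNAU1AP and EEFSEC are given by ID. Gene positions come from RefSeq, which held all 5 members by symbol.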

Additional observations from a re-analysis of the deposited data

How the results depend on the processing

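Over 720 member results under alternatives, 674 kept their direction and their side of the threshold. The enrichments of PSTK and TRNAU1AP passed in all 20 alternatives, at 0.94 to 1.25 and 1.08 to 1.31, and with selenite at 0.91 to 1.17 and 0.75 to 1.04. With the replicate number as a replicate block, 1 member passed in SBP2 against control inputs and 1 in selenite against control inputs, where 0 passed without it. Both were SARS1, at -0.27 (edgeR adjusted p = 0.0079) and -0.23 (0.0338). The lysate block changed no other member call than SARS1 in the SBP2 enrichment. The counts of all IDs called moved most in the inputs. SBP2 against control had 146 in edgeR, 737 without control input replicate 1 and 21 to 50 without any other library, 329 with DESeq2, 681 without a filter, 702 over 18 libraries and 2734 with the block. Selenite against control had 92, and 23 to 54 without selenite input replicate 1 or 2 or control input replicate 2 or 3. The settings named for SBP2 gave 202, 329, 359 and 1130 there, and the fit over the compared groups 32. SBP2 inputs with against without selenite had 1, and 37 with the block and 27 without a filter. For the selenite effect on recovery DESeq2, the unfiltered fit and RIP against RIP each called 1 ID, where edgeR called 0. The enrichment with selenite had 5956 IDs and 9024 in RIP against RIP. Library size alone shifted the median of all IDs by 0.18 in control RIP against input and by -0.15 in the SBP2 enrichment.

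Of the member results 28 turned sign, and 0 of them passed the test. The causes were not tested. RIP against RIP turned the SEPSECS enrichment to 0 and the SARS1 enrichment with selenite to -0.03, and upper-quartile scaling turned the EEFSEC selenite effect to -0.01. The PSTK difference between selenite and control inputs came to 0 with limma voom, over 18 libraries and with the block. The others came from leaving out 1 library. Over such fits the SEPSECS enrichment ran from -0.20 to 0.06, and the selenite effect on recovery from -0.05 to 0.11 for EEFSEC and from -0.12 to 0.08 for PSTK. SBP2 against control inputs ran from -0.22 to 0.02 for EEFSEC and from -0.06 to 0.21 for SEPSECS. SBP2 inputs with against without selenite ran from -0.01 to 0.15 for EEFSEC, -0.32 to 0 for SEPSECS, -0.01 to 0.08 for TRNAU1AP and 0 to 0.09 for SARS1. Selenite against control inputs ran from -0.15 to 0.10 for EEFSEC, -0.25 to 0.08 for SEPSECS and -0.05 to 0.07 for PSTK. SEPSECS and PSTK, with the lowest counts, had the widest errors in the enrichments.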
